A study of Fukomys damarensis and Heterocephalus glaber and Mus musculus with 160 samples.

Results

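Regions of chromatin that carried acetylation of lysine 27 on histone H3 (H3K27ac) but neither methylation mark of lysine 4 (H3K4me1, H3K4me3) were followed in liver and heart of 4 rodents. Peak lists from chromatin immunoprecipitation and sequencing were used, and each species and tissue was treated apart. A consensus region of a mark was a peak that overlapped a peak of another replicate by at least 50% of the shorter one, merged with the others it met. The members were chosen by these lists: H3K27ac consensus regions that overlapped no H3K4me1 and no H3K4me3 consensus region of the same tissue under the same overlap rule. There were 143044 members among 541446 H3K27ac consensus regions, or 26.4%. Of the rest, 250979 carried H3K4me1 without H3K4me3 and are called H3K4me1-marked regions, and 147423 carried H3K4me3.

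The animals were wild-type adults: naked mole-rats, C57BL/6J mice, guinea pigs and Damaraland mole-rats, with no treatment named in the labels. The labels gave ages of 13 to 17 months for naked mole-rats, an estimated 36 or 48 months for Damaraland mole-rats, 2.3 months for guinea pigs and 2 months for mice. The animals were labelled male except 1 female Damaraland mole-rat, DMR6. The lists numbered 34 for H3K27ac, 33 for H3K4me1 and 32 for H3K4me3, with 3 to 6 H3K27ac lists in each of the 8 combinations of species and tissue. A replicate is 1 animal by its label, except 1 mouse heart pool of 3 animals. Whole tissue was used, so fewer cells with a mark and less of it per cell cannot be told apart. In the mole-rats, 16 liver lists of transcription factors (RXRA, HNF6, HNF4A, FOXA1 and CEBPA) and 1 heart list of the factor TBX5 were also used. Read depth was unknown. Mouse positions are on GRCm38. Naked mole-rat positions are on scaffolds of HetGla_1.0, Damaraland mole-rat positions on DMR_v1.0 and guinea pig positions on Cavpor3.0. No genome or annotation of these builds was used here, so no gene or sequence is given.

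H3K27ac is laid down by the acetyltransferases p300 and CBP at active promoters and enhancers. H3K4me3 is typical of promoters, and H3K4me1, written mainly by MLL3 and MLL4, is typical of enhancers, whether active or primed. An active element is therefore usually recognised by H3K27ac together with one of the methylation marks, and regions with acetylation alone fall outside that scheme. The liver factors are regulators of hepatocyte genes, and TBX5 is a regulator of heart development and of cardiomyocyte genes.

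Some lists stood apart in size. The naked mole-rat liver H3K4me3 list of NMR30 held 253457 peaks, against 27591 to 48726 in the other 4 animals. The Damaraland mole-rat heart H3K4me1 list of DMR11 held 32893 peaks and that of the mouse pool 20521. Leaving each out gave 13164, 24542 and 18726 members, against 13109, 24075 and 18541 with them. The mouse heart H3K4me1 list of animal 33017 and the Damaraland mole-rat heart H3K4me1 list of DMR1 carried a tag in the name of the list whose meaning is not given in the sources used here. Without them the members numbered 25189 in mouse heart and 27911 in Damaraland mole-rat heart.

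Acetylation without methylation was most frequent in naked mole-rat heart, where 30575 of 64893 H3K27ac regions were members (47.1%, Wilson 95% interval 46.7% to 47.5%). Heart had the larger share of consensus regions in each species. In naked mole-rat liver 13109 of 83298 regions were members (15.7%). In this species heart had 3 lists each of H3K27ac and H3K4me1, and liver 5 each. The part of the number of lists was not tested. The Damaraland mole-rat gave 10953 of 76287 in liver (14.4%) and 24075 of 77153 in heart (31.2%). In the guinea pig the numbers were 17259 of 66360 in liver (26.0%) and 18607 of 60407 in heart (30.8%), the smallest gap between tissues. Mouse liver held 9925 of 49229 (20.2%) and mouse heart 18541 of 63819 (29.1%). Members covered a smaller share of the acetylated bases than of the regions: 6.36% of the bases in Damaraland mole-rat liver and 32.8% in naked mole-rat heart were the lowest and highest shares. Member numbers depended on single libraries, and not in the guinea pig alone. Leaving out a single list of any mark gave 20485 to 39011 members in naked mole-rat heart. The ranges were 17486 to 30573 in Damaraland mole-rat heart and 13119 to 25189 in mouse heart. Without the liver H3K27ac list of GuineaPig7 or GuineaPig9 the members numbered 11100 or 11396, and without the heart list of GuineaPig8 they numbered 11796. These numbers come from the lists that define the members and are a description.

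In single H3K27ac libraries the share of a library's own H3K27ac peaks lying outside both methylation consensus sets was 57.0% ± 0.947 in naked mole-rat heart (SD, n = 3) and 18.9% ± 4.60 in its liver (n = 5), with no overlap. The Damaraland mole-rat libraries were also apart, at 35.2% ± 7.41 in heart (n = 5) and 14.7% ± 3.19 in liver (n = 5). Guinea pig heart and liver were at 37.9% ± 3.38 and 31.7% ± 3.79 (n = 3 each), with ranges of 35.5% to 41.7% and 27.5% to 34.8% that did not overlap. In the mouse the tissues overlapped: the 6 heart libraries ran from 18.8% to 38.7% and the 4 liver libraries from 21.0% to 24.0%.

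The number of H3K4me1 peaks differed between tissues and animals beside these shares. When the 3 marks of 1 animal were paired, the H3K27ac peaks lacking both H3K4 marks made up 67.9% in Damaraland mole-rat DMR11 heart, with its 32893 H3K4me1 peaks, and 66.5% in the mouse pool, with 20521. It was 23.6% in NMR34 liver, with 180145 H3K4me1 peaks, and 41.7% in DMR2 heart, with 158541. In mouse liver it was 27.5% to 29.5% with 86486 to 113889 peaks. In the guinea pig, where each animal gave both tissues, the share was higher in heart in GuineaPig7 (40.1% against 31.0% in liver) and GuineaPig8 (43.2% against 28.8%). GuineaPig9 had the reverse, 32.1% in heart and 39.5% in liver, with 130362 H3K4me1 peaks in heart and 119768 in liver. Heart lists of H3K4me1 were smaller on average than liver lists in all 4 species, for example 72466 ± 34806 peaks (SD, n = 3) against 152568 ± 19684 (n = 5) in the naked mole-rat. With every library cut to the smallest list of its species and mark, which for H3K4me1 is the pool in the mouse and DMR11 in the Damaraland mole-rat, the members made up 50.3% of H3K27ac regions in naked mole-rat heart and 32.7% in its liver. The Damaraland mole-rat then gave 36.7% and 28.5%, and the guinea pig 34.2% and 27.6%. In the mouse the tissues came to 48.8% in heart and 47.7% in liver. Heart kept the larger share in each species, and the gap between tissues was then smallest in the mouse. The part of peak number in the remaining differences was not tested.

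**Figure D1:**
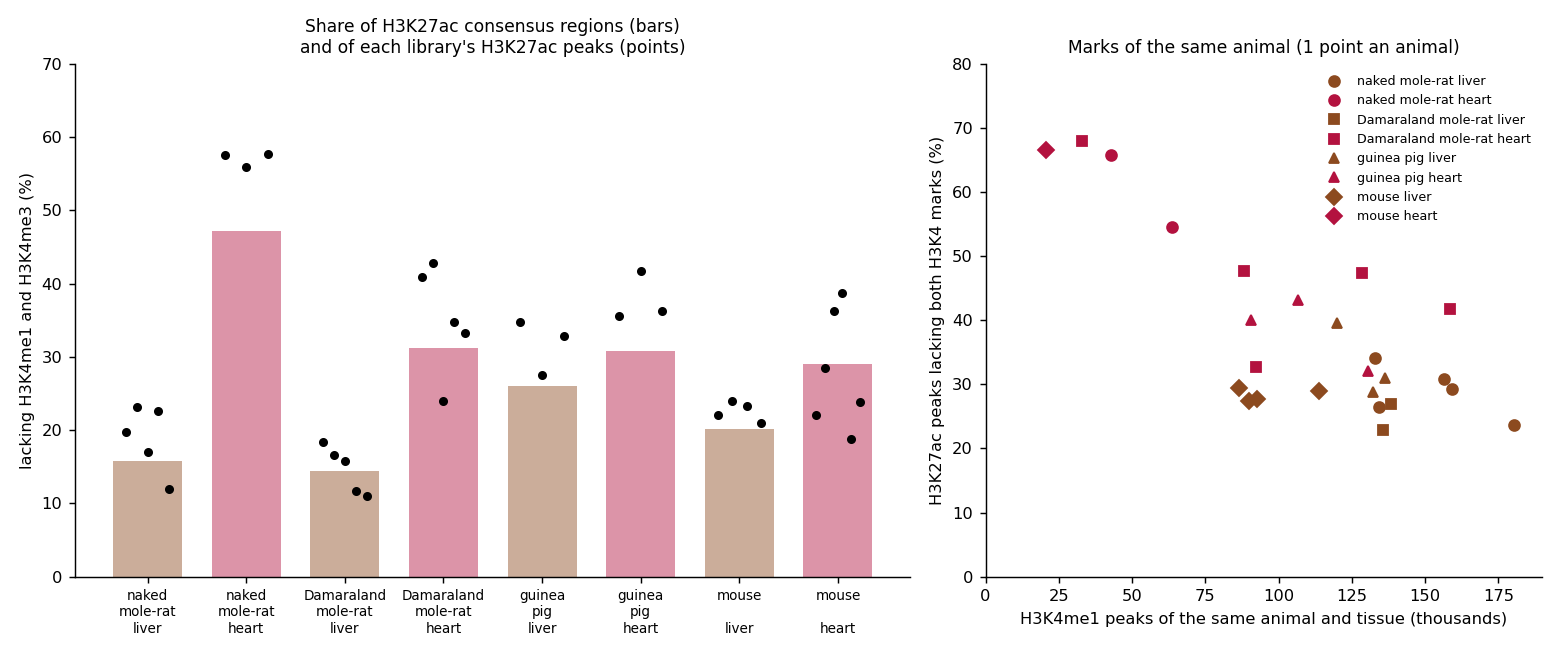
Left, the share (%) of H3K27ac consensus regions without H3K4me1 and H3K4me3 (bars) and of the H3K27ac peaks of each library outside both consensus sets (points), by species and tissue. Right, for each animal with all 3 marks, the share (%) of H3K27ac peaks lacking both H3K4 marks of that animal against its number of H3K4me1 peaks (axis in units of 1000), where 1 point is 1 animal and tissue. Naked mole-rat heart is highest on the left, at 47.1%, and the points on the right with the fewest H3K4me1 peaks are the mouse pool, DMR11 heart and NMR32 heart, at 66.5%, 67.9% and 65.8%.

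Members were narrow. Their median width was 412 bases in naked mole-rat liver, 474 in Damaraland mole-rat liver, 607 in mouse liver and 708 in guinea pig liver. The H3K4me1-marked regions of the same tissues had medians of 634, 767, 1016 and 1187 bases. In heart the members had medians of 627, 605, 608 and 552 bases in the naked mole-rat, mouse, guinea pig and Damaraland mole-rat, against 1092, 1070, 995 and 968 for the H3K4me1-marked regions. Between 58.2% (guinea pig liver) and 69.9% (mouse liver) of members were 300 to 800 bases wide. The upper 5% of members began at 1038 bases in naked mole-rat liver and at 2191 in guinea pig liver, and the widest member, in naked mole-rat heart, spanned 12239 bases. Single peaks of the members were narrower than single peaks of H3K4me1-marked regions in 34 of 34 H3K27ac libraries. A wide region can meet a methylation region more easily, so the rule itself favours narrow members and the widths are a description.

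**Figure D2:**
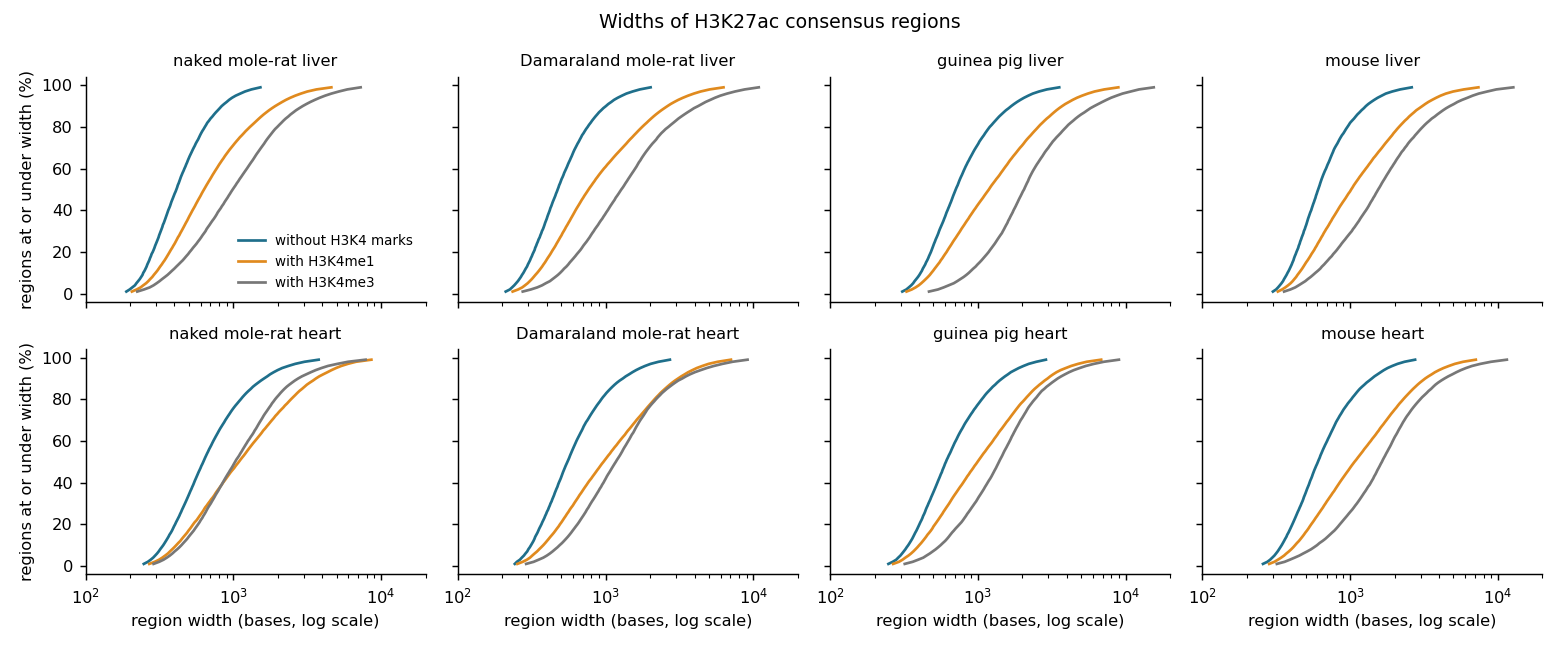
Cumulative widths of H3K27ac consensus regions in the 4 species (columns) and 2 tissues (rows), with width in bases on a log axis and the percent of regions at or under that width on the other, from the 1st to the 99th percentile. The curve of regions without H3K4 marks lies left of the curve of H3K4me1-marked regions in each panel, with medians of 412 against 634 bases in naked mole-rat liver.

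Acetylation of members was also weaker. The fold enrichment of a peak is the ratio over background that the authors' peak caller reports. It was compared within a library, and further on as the mean of a region over the H3K27ac libraries of its tissue with a peak there. In the 5 naked mole-rat liver libraries the median fold of members was 5.36, 5.18, 4.98, 4.98 and 5.53, and that of H3K4me1-marked regions was 6.16, 6.17, 5.88, 6.10 and 6.75. Means over libraries were 5.20 ± 0.241 and 6.21 ± 0.324 (SD, n = 5). In naked mole-rat heart, where members were most frequent, the 3 libraries gave 5.40, 5.30 and 5.35 for members and 5.78, 6.17 and 6.07 for H3K4me1-marked regions. The medians of the regions compared did not overlap in either tissue of this species. In mouse liver the means were 5.24 ± 0.216 against 6.56 ± 0.238 (n = 4), and in guinea pig liver 4.64 ± 0.266 against 5.58 ± 0.0876 (n = 3). Mouse heart had the smallest gap, 5.11 ± 0.417 against 5.60 ± 0.512 (n = 6), and there the ranges overlapped between libraries. Guinea pig heart ranges overlapped too, at 5.19 to 5.66 for members and 5.62 to 6.38 for H3K4me1-marked regions (n = 3). Within a library the members were always the lower of the pair, in 34 of 34. The folds too come from the lists that define the members and are a description.

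**Figure D3:**
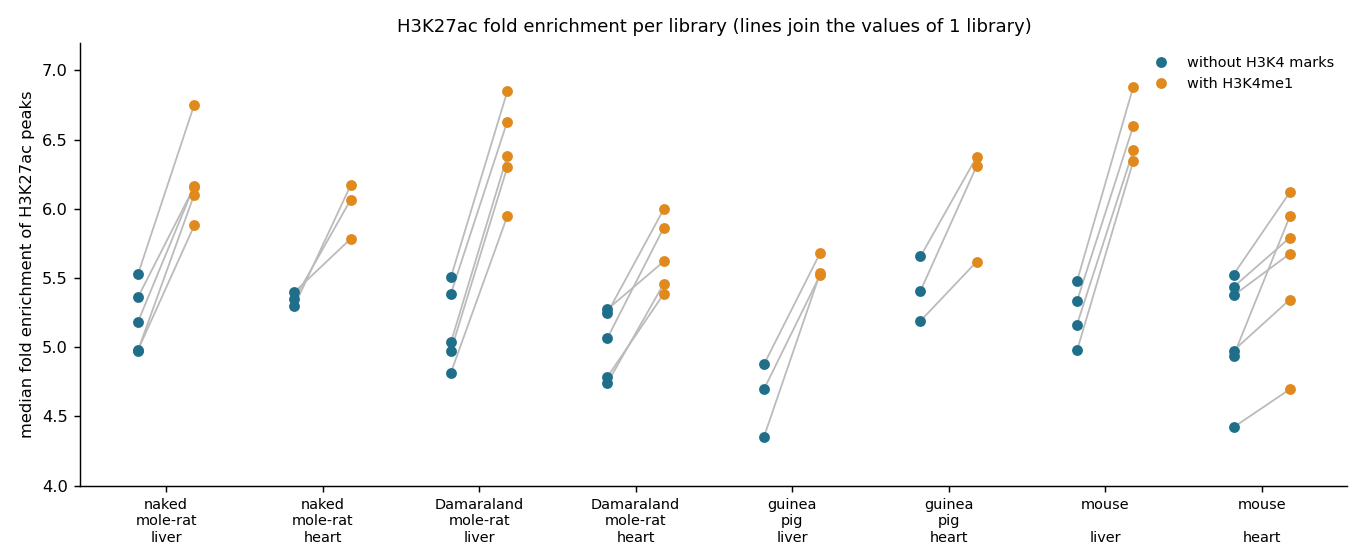
Median fold enrichment (ratio over background, axis from 4) of the H3K27ac peaks of each library at regions without H3K4 marks and at H3K4me1-marked regions, where a line joins the values of 1 library. Each of the 34 lines rises to the H3K4me1-marked regions.

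Members were most frequent among weakly acetylated regions, and many were called in few libraries. When the H3K27ac regions of a species and tissue were put into 4 equal parts by mean fold, members made up 31.1% of the lowest part and 0.840% of the highest in naked mole-rat liver. In mouse liver the shares were 40.1% and 0.715%, in Damaraland mole-rat heart 55.2% and 2.93%. Naked mole-rat heart differed, with members at 72.7% of the lowest and 11.5% of the highest part, or 1869 strongly acetylated regions without a methylation region. Peaks of no more than 2 libraries supported 51.2% of members in naked mole-rat liver and 44.8% in Damaraland mole-rat liver, against 26.3% and 23.2% of H3K4me1-marked regions. A peak in every one of the 5 libraries was present for 1550 members in naked mole-rat liver (11.8%) and 1881 in Damaraland mole-rat liver (17.2%). In mouse heart it was present in all 6 libraries for 1179 members (6.36%). In each combination fewer than 50% of members had a peak in every library.

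A consensus needs 2 libraries, so a methylation peak in 1 library alone leaves a region among the members. Over all members, 78599 (54.9%) had no H3K4me1 or H3K4me3 peak in any single library of their tissue, and 50699 (35.4%) had an H3K4me1 peak in exactly 1 library. The share with no methylation peak at all lay between 48.5% in Damaraland mole-rat heart and 65.7% in guinea pig liver, and was 54.0% in mouse liver and 54.1% in mouse heart. These strictly bare regions were narrower than the other members in each combination, for example 368 against 481 bases in naked mole-rat liver and 533 against 729 in mouse heart. Their median fold was lower too, 5.06 against 5.43 and 4.97 against 5.37 in those combinations. A choice by absence of overlap favours narrow regions here as well. Counted against all H3K27ac regions they made up 7.89% in Damaraland mole-rat liver and 25.8% in naked mole-rat heart, the lowest and highest shares.

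The share of members with a peak differed between H3K4me1 libraries. In naked mole-rat heart, 28.9% of members had a peak in the list of NMR30 (110851 peaks), 12.5% in that of NMR31 (63590) and 7.01% in that of NMR32 (42957), in the order of list size. In mouse heart it was 24.8% for animal 33017 (129914 peaks) and 0.728% for the pool (20521). In Damaraland mole-rat liver DMR2 reached 22.7% of members with 165394 peaks, DMR6 8.57% with 158274 and the other 3 animals 5.08% to 5.58% with 130602 to 138248. Naked mole-rat liver did not follow list size throughout: NMR32 reached 9.99% with 134202 peaks and NMR30 8.86% with 159191. H3K4me1 peaks at members had a lower median fold and width than their whole list, by amounts that differed. In NMR32 liver the fold was 4.37 against 5.12 and the width 355 against 552 bases. In NMR30 heart the values were nearly level, 4.16 against 4.20 and 439 against 449 bases. H3K4me3 peaks of single libraries were rarer, at 1.79% of members in guinea pig liver and 9.92% in naked mole-rat liver. In the NMR30 liver H3K4me3 list 5.46% of members had a peak, against 0.549% to 2.48% in the other 4.

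A further 4.94% (guinea pig liver) to 9.28% (Damaraland mole-rat heart) of members had H3K4me1 peaks in more than 1 library and were still members. Of these, 14.4% in naked mole-rat heart to 35.7% in naked mole-rat liver touched a consensus H3K4me1 region but shared less than 50% of the shorter one. For the others the single-library peaks did not overlap each other enough to make a consensus region. With 1 shared base counted as overlap, the members numbered 131433, or 23.3% of H3K27ac regions. Regions just inside and just outside the 50% threshold can be set side by side. In naked mole-rat liver the 466 regions sharing 40% to under 50% had a median width of 553 bases and fold of 5.45, and the 780 sharing 50% to under 60% had 610.5 bases and 5.61. In Damaraland mole-rat liver the 320 just inside had 621.5 bases and 5.22, and the 582 just outside 891 bases and 6.01. Members sharing no base with H3K4me1 had medians of 403 bases and 5.20 in the first of these tissues.

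Distances to methylated regions varied between tissues. The nearest consensus region of either methylation mark lay a median of 978 bases away in naked mole-rat liver, 1620 in Damaraland mole-rat liver, 2438 in mouse liver and 3999 in guinea pig liver. In heart the medians were 4821, 2018, 2259 and 3754 bases for the naked mole-rat, Damaraland mole-rat, mouse and guinea pig. Members within 1 kb of such a region made up 49.8% in naked mole-rat liver and 25.6% in its heart, and members beyond 10 kb 17.3% and 37.3%. An H3K4me3 region lay within 1 kb of 2.29% (guinea pig liver) to 7.85% (naked mole-rat liver) of members. The same share among H3K4me1-marked regions was 3.77% and 7.39% in these tissues. Guinea pig liver was the only combination in which members had the lower share, and naked mole-rat heart had 5.86% against 4.98%. By rule neither class overlaps an H3K4me3 consensus region.

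An H3K4me1 library that took no part in choosing regions can be asked whether they hold the mark. Each H3K4me1 library was left out in turn and the members were chosen again from the rest. The set chosen again also takes in regions that the left-out library would have excluded, so it is larger than the members. Without NMR34 in naked mole-rat liver it held 15483 regions, against 13109 members. Of these 15483, 24.2% had a peak in the NMR34 list, against 11.5% of the 13109 members. The share of the set chosen again with a peak in the library left out was set against H3K27ac regions of the other tissue. Those regions had no consensus region of any of the 3 marks in the tissue at hand. In naked mole-rat liver 20.0% ± 3.66 of the members chosen again had a peak in the library left out, against 6.21% ± 1.63 of the compared regions (SD, n = 5). In Damaraland mole-rat liver the shares were 20.3% ± 12.3 and 5.90% ± 3.21 (n = 5), in guinea pig liver 26.9% ± 10.96 and 8.05% ± 3.77 (n = 3), and in mouse liver 25.9% ± 9.18 and 7.44% ± 7.15 (n = 4). In heart they were 27.8% ± 14.8 and 6.86% ± 4.92 in the naked mole-rat (n = 3) and 22.3% ± 13.3 and 5.68% ± 4.39 in the Damaraland species (n = 5). Guinea pig heart gave 32.9% ± 9.39 and 9.20% ± 3.44 (n = 3), and mouse heart 19.7% ± 16.5 and 5.50% ± 5.25 (n = 5). Members chosen again were higher in 33 of 33 libraries, and also in 33 of 33 among regions of 300 to 800 bases.

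Averaged over species, 23.3% of liver members and 25.7% of heart members chosen again had a peak in the library left out. This was 16.4 ± 2.62 and 18.9 ± 4.29 percentage points (SD, n = 4 species) above the compared regions. The direction was the same in 4 of 4 species in each tissue. The two-sided exact sign-flip test over species gave p = 0.13 for each, which is the smallest that 4 species allow. After Benjamini-Hochberg adjustment over 8 tests, those over species and over factor libraries, it was 0.143. The libraries differed widely: the lowest share among members chosen again was 1.60% in the mouse pool and the highest 44.0% in mouse heart 33017. Both ends thus came from 1 group. In mouse heart the longest list gave the highest share and the shortest the lowest. In naked mole-rat liver the order differed, at 22.9% for NMR32 with 134202 peaks and 17.1% for NMR30 with 159191. The part of list size was not tested.

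The state of members in the other tissue differed between liver and heart. Of liver members, 39.7% overlapped a consensus region of any mark in heart in the naked mole-rat, against 46.3% of all its liver H3K27ac regions and 29.2% of its H3K4me1-marked ones. The Damaraland mole-rat gave 52.7% of members, 53.4% of all regions and 38.3% of H3K4me1-marked ones. In the guinea pig the shares were 38.3%, 50.0% and 38.6%, and in the mouse 51.2%, 61.1% and 46.1%. Liver members were thus found in heart more often than H3K4me1-marked regions in 3 of 4 species, and slightly less often in the guinea pig. The mean difference was 7.42 ± 6.41 percentage points (SD, n = 4 species; two-sided exact sign-flip p = 0.25, adjusted p = 0.25). With libraries cut to equal numbers of peaks it was 1.77 points, and among regions with a peak in every H3K27ac library 16.2.

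Heart members showed the reverse. In the naked mole-rat 32.8% of them were found in liver, against 57.8% of all heart H3K27ac regions and 60.7% of the H3K4me1-marked ones. The Damaraland mole-rat gave 28.8%, 56.5% and 53.0%, the guinea pig 29.7%, 59.1% and 55.1%, and the mouse 20.4%, 50.6% and 44.1%. Heart members were less often found in the other tissue in 4 of 4 species, by 25.3 ± 1.88 percentage points on average (SD, n = 4; two-sided exact sign-flip p = 0.13, the smallest possible, adjusted p = 0.143). The share of all regions includes those with H3K4me3, of which 84.5% to 94.4% in liver and 90.4% to 95.3% in heart were found in the other tissue.

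Acetylation itself was then followed alone, a choice made after the values over any mark were seen. Liver members overlapped a heart H3K27ac peak more often than H3K4me1-marked liver regions did in 17 of 17 heart H3K27ac libraries, by 10.0 ± 4.17 percentage points (SD over libraries). Heart members overlapped a liver H3K27ac peak less often than H3K4me1-marked heart regions in 17 of 17 liver libraries, by 16.7 ± 3.22 points. In the naked mole-rat, for example, a mean of 36.5% of liver members and 24.9% of H3K4me1-marked liver regions had a peak in a heart H3K27ac library (n = 3 libraries). In the opposite direction the means were 20.6% and 39.7% (n = 5). For H3K4me1 both tissues went one way: liver members were lower than H3K4me1-marked regions in 16 of 16 heart H3K4me1 libraries and heart members in 17 of 17 liver ones. For H3K4me3 heart members were lower in 14 of 14 liver libraries, and liver members in 6 of 18 heart libraries. Liver members were higher for H3K4me3 in 5 of 5 Damaraland mole-rat libraries, with means of 7.02% against 3.87%, and lower in 3 of 3 guinea pig libraries, with 4.56% against 5.94%. With libraries cut to equal numbers of peaks, the consensus difference for H3K27ac was 5.61 points for liver members, above 0 in 4 of 4 species, and −19.0 points for heart members, below 0 in 4 of 4. Without cutting, it was 12.2 and −17.0 points. Among regions of 300 to 800 bases the heart value was −7.40, also below 0 in 4 of 4 species, and for strictly bare liver members the value was 8.79, above 0 in 3 of 4.

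**Figure D4:**
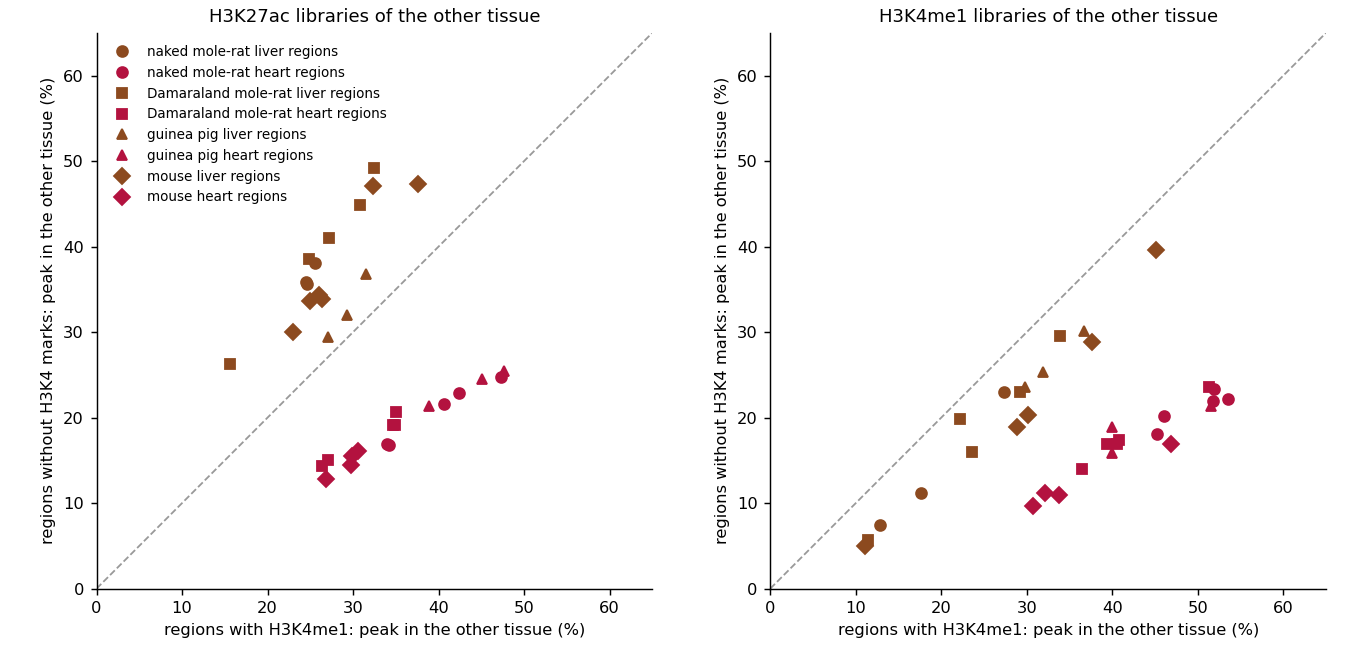
Percent of regions with a peak in each H3K27ac (left) and H3K4me1 (right) library of the other tissue, for regions without H3K4 marks (vertical axis) against H3K4me1-marked regions (horizontal axis), where 1 point is 1 library and the dashed line marks equal shares. Liver regions (brown) lie above the line in 17 of 17 H3K27ac libraries and below it in 16 of 16 H3K4me1 libraries, and heart regions (red) lie below it in both.

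Part of the members had acetylation alone in both tissues. Of liver members that were acetylated in heart, 65.9% in the naked mole-rat were without either methylation region there too. The mouse had 32.7%, the guinea pig 31.8% and the Damaraland mole-rat 38.6%. The corresponding shares for H3K4me1-marked liver regions were 42.9%, 14.7%, 18.2% and 21.1% in that order. These members acetylated alone in both tissues numbered 3244 in naked mole-rat liver (24.7% of its members), 2044 in Damaraland mole-rat liver (18.7%), 1748 in guinea pig liver (10.1%) and 1518 in mouse liver (15.3%). Of all liver H3K27ac regions, 10.4%, 6.84%, 5.44% and 5.87% were acetylated without a methylation region in heart, in that order. Of heart members, 6.05% (Damaraland mole-rat) to 10.3% (guinea pig) were acetylated alone in liver. H3K4me1-marked heart regions gave 5.28% to 12.3% and all heart H3K27ac regions 4.86% to 9.25%, in the same species. Heart members were below the H3K4me1-marked ones in the guinea pig and above them in the other species. Of heart members acetylated in liver, 29.4% to 43.5% were alone there, against 13.6% to 28.4% of H3K4me1-marked ones. In mouse liver the members acetylated alone in both tissues had a median width of 602.5 bases, against 609 for the other members. In naked mole-rat heart it was 783.5 against 617. No methylation peak in any single library of either tissue was present for 1145 of the 3244 (35.3%) in naked mole-rat liver. Another 12.8% of naked mole-rat liver members carried H3K27ac together with a methylation mark in heart, and this share was 29.7%, 21.7% and 31.4% in the Damaraland mole-rat, guinea pig and mouse. It was higher among all liver H3K27ac regions in each species, at 29.8% in the naked mole-rat and 39.7%, 36.3% and 47.2% in the other 3 as ordered above.

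Transcription factors were present at members, at a lower rate than at H3K4me1-marked regions. At least 1 of the 8 liver factor libraries had a peak at 2299 naked mole-rat liver members (17.5%) and 1683 Damaraland mole-rat liver members (15.4%). For H3K4me1-marked regions the shares were 45.6% and 56.7%, and for all liver H3K27ac regions 44.4% and 52.6%. CEBPA had the highest share in NMR30, NMR35 and DMR4, and HNF6 (2.75%) in DMR1. CEBPA peaks overlapped 7.67% of members in NMR30 and 5.84% in NMR35, against 26.0% and 21.0% of H3K4me1-marked regions, and 2.41% in DMR1 and 5.97% in DMR4, against 14.8% and 34.5%. RXRA, the partner of many nuclear receptors, had peaks at 1.21% and 3.71% of members in NMR30 and NMR35, against 7.53% and 14.1%. The lowest shares were 1.18% for HNF4A in NMR30 and 1.16% for FOXA1 in DMR4. At least 4 of the 8 libraries met at 173 naked mole-rat members (1.32%) and 116 Damaraland mole-rat members (1.06%). This share was 8.09% and 15.7% of H3K4me1-marked regions and 9.19% and 14.5% of all liver H3K27ac regions.

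Members were the lower in 16 of 16 factor libraries. The mean difference in factor shares was −9.15 ± 5.55 percentage points in the naked mole-rat and −15.8 ± 8.60 in the Damaraland mole-rat (SD, n = 8 libraries each; two-sided exact sign-flip p = 0.0078 each, the smallest that 8 libraries allow, adjusted p = 0.0156). Because the 8 libraries of a species came from 2 animals and several share a factor, they are not independent. Because members were narrower, regions of 300 to 800 bases were compared as well. Members stayed lower there in 8 of 8 Damaraland mole-rat libraries and in 7 of 8 naked mole-rat libraries, with mean differences of −5.12 and −3.81 points. In the band the exception was HNF4A in NMR30, with 1.19% of members and 1.16% of H3K4me1-marked regions. Among regions with a mean H3K27ac fold up to the median, an alternative added after seeing the data, the differences were −5.68 points (8 of 8 lower) and −3.59 (7 of 8). With libraries cut to equal numbers of peaks, the mean share of Damaraland mole-rat members with a factor peak was 15.5% in place of 3.07%, and the difference −17.9 points. Per kb of region, factor summits were 0.219 to 0.449 times as frequent at members as at H3K4me1-marked regions in the Damaraland mole-rat and 0.274 to 0.894 times in the naked mole-rat.

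Liver factors were more frequent at liver members than at heart members. For this, members found in the other tissue under any mark were left out, which left 7902 liver-only and 20554 heart-only members in the naked mole-rat and 5178 and 17134 in the Damaraland mole-rat. By this choice liver-only members are acetylated in liver and heart-only members have no consensus region of any mark there. The direction may thus follow from the choice, and the test cannot separate the 2. In NMR30 CEBPA peaks overlapped 9.66% of liver-only and 3.38% of heart-only members, and in DMR4 9.68% and 1.36%. RXRA peaks in DMR4 overlapped 7.15% and 0.782%, a ratio of 9.14 that was the highest of the 16 libraries. HNF4A in NMR30 was nearly level, at 1.42% and 1.32%. Liver-only members were higher in 16 of 16 libraries, by 2.79 ± 2.28 points in the naked mole-rat and 3.54 ± 2.45 in the Damaraland mole-rat (SD, n = 8 each; two-sided exact sign-flip p = 0.0078 each, adjusted p = 0.0156). As above, the libraries of a species are not independent. Heart members had the larger median widths in both species, given above. With libraries cut to equal numbers of peaks the differences were 6.31 and 17.7 points, and with 3 or more replicates required, 7 of 8 naked mole-rat libraries kept the direction.

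The heart factor TBX5 was measured in 1 Damaraland mole-rat, DMR6, an animal with no heart histone list among those used. Its peaks overlapped 1782 of 24075 heart members (7.40%, Wilson 95% interval 7.08% to 7.74%) and 3935 of 30348 H3K4me1-marked heart regions (13.0%, 12.6% to 13.3%), and 11.5% of all heart H3K27ac regions had one. Per kb the summits were level, 0.0984 at members and 0.0978 at H3K4me1-marked regions. TBX5 overlapped 7.62% of heart-only members and 3.17% of liver-only members. Here too the choice sets regions acetylated in heart against regions without a consensus region of any mark there. With 1 library there is no replicate, and the intervals cover counting error only.

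**Figure D5:**
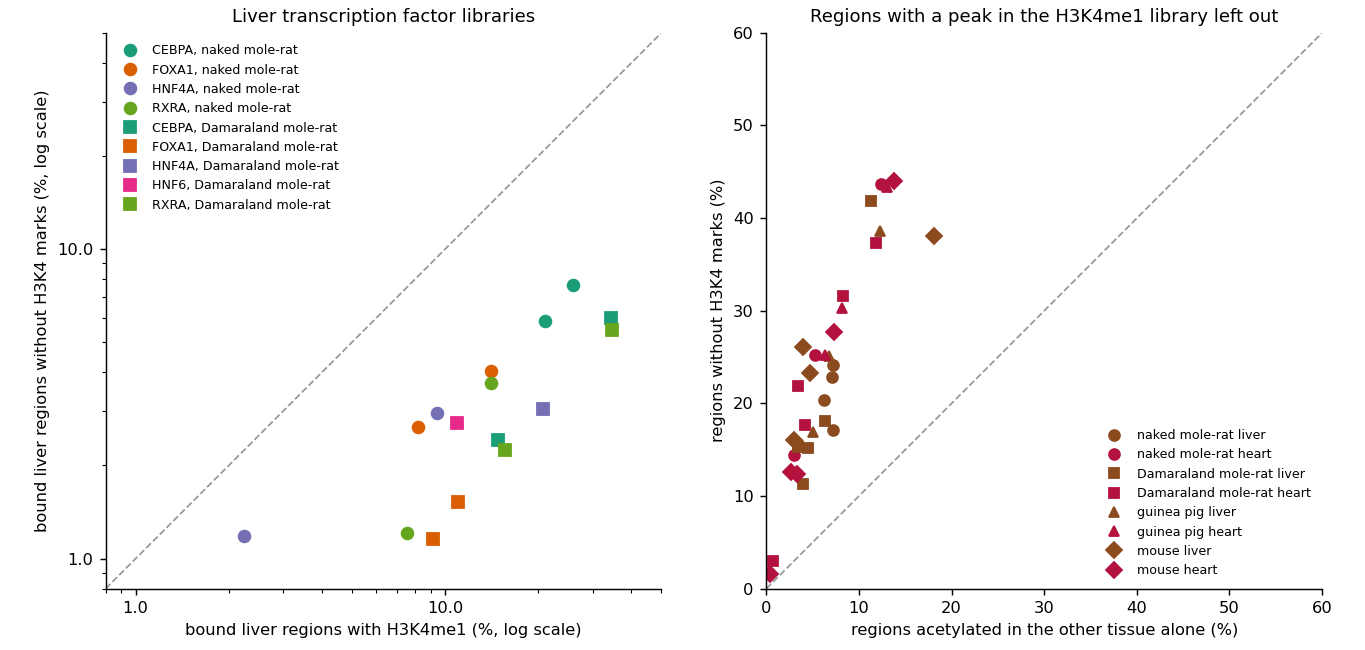
Left, percent of liver regions with a peak in each of the 16 liver factor libraries, for regions without H3K4 marks (vertical) against H3K4me1-marked regions (horizontal), both on log axes, with circles for the naked mole-rat and squares for the Damaraland mole-rat. Right, percent of regions with a peak in each H3K4me1 library left out, for members chosen without it (vertical) against regions acetylated in the other tissue alone (horizontal). All 16 points on the left lie under the dashed line of equal shares, and all 33 on the right lie above it.

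The members with the highest fold were then looked at one by one. Among members with a peak in every H3K27ac library and no methylation peak in any library of the tissue, the 2 with the highest mean fold were taken per species and tissue. In guinea pig liver the first, DS562887.1:19426730-19427775, had folds of 44.8, 53.2 and 45.8 in the 3 animals. It had a peak in 3 of 3 heart H3K27ac and 2 of 3 heart H3K4me3 libraries. The second, DS562870.1:27705138-27706193, had folds of 26.7, 35.1 and 19.9, lay 38 bases from an H3K4me1 region, and had a heart peak in 3 of 3 libraries of both H3K27ac and H3K4me3. Both thus carried H3K27ac and H3K4me3 peaks in heart and no methylation peak in liver.

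In mouse liver the first was chr6:149164793-149167300, 2508 bases wide, with folds of 17.3, 27.5, 28.9 and 21.8 in the 4 animals. In heart it had H3K27ac in 4 of 6 and H3K4me1 in 3 of 5 libraries. The second, chr5:87346093-87350055, spanned 3963 bases with folds of 23.2, 18.4, 28.7 and 15.9, with no heart peak of H3K27ac or H3K4me1 and an H3K4me3 peak in 1 of 6 heart libraries. In mouse heart chr11:103965116-103966391 had a lowest fold of 6.20, a median of 12.9 and a highest of 18.4 over 6 libraries, lay 188 bases from an H3K4me3 region, and was acetylated in 3 of 4 liver libraries. For chr5:17988806-17990676 the values were 6.20, 11.5 and 16.4, with no peak of any mark in liver.

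Naked mole-rat heart held wide examples. JH169217.1:1157219-1159300 had folds of 25.6, 19.3 and 32.8, and JH168368.1:1753328-1759253, which spanned 5926 bases, had 26.5, 16.9 and 34.0. Neither had a liver H3K27ac or H3K4me1 peak in any library, and the second had a liver H3K4me3 peak in 1 of 5. The Damaraland mole-rat heart regions KN125438.1:9199498-9201928 and KN121930.1:3674251-3675449 had mean folds of 14.3 ± 4.37 and 12.9 ± 3.004 (SD, n = 5), no liver peak of any mark, and the second held a TBX5 peak. The guinea pig heart regions DS562866.1:4812475-4814269 and DS562876.1:7088507-7091660 had mean folds of 17.8 ± 1.55 and 17.6 ± 3.20 (n = 3) and no liver peak either. The 6 heart regions of these species were thus without an H3K27ac peak in liver.

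In mole-rat liver the 4 regions were 238 to 705 bases wide. JH181774.1:1-238, which starts at the first base of its scaffold, had folds of 15.2, 20.6, 13.2, 19.6 and 36.0, no factor peak, and no methylation region anywhere on that scaffold. KN097998.1:1-469 also starts at the first base of a scaffold without a methylation region, with folds of 29.3, 18.04, 11.7, 29.3 and 8.56. It had peaks of FOXA1 and RXRA, and in heart H3K27ac in 4 of 5 and H3K4me3 in 2 of 5 libraries. JH167154.1:1752952-1753656 had folds of 26.5, 21.6, 10.4, 15.4 and 28.2, a peak in 3 of 3 heart H3K27ac libraries, and peaks of CEBPA, FOXA1 and RXRA in NMR35. KN124308.1:353636-354104 had folds of 29.0, 9.72, 29.6, 15.0 and 30.3, a CEBPA peak in DMR4, and lay 411 bases from an H3K4me3 region. In heart it had H3K27ac in 5 of 5 and H3K4me3 in 3 of 5 libraries. A peak in 8 of 8 factor libraries was present at 5 naked mole-rat and 3 Damaraland mole-rat liver members, and the one with the highest mean fold was taken in each species. These were JH168139.1:2291445-2293274 and KN122061.1:1339187-1342647, of 1830 and 3461 bases. Each had H3K4me1 peaks in 5 of 5 single libraries and touched a consensus H3K4me1 region with less than 50% of the shorter one. The first also had an H3K4me3 peak in 2 liver libraries and the second in 1. Both are thus members although peaks of both methylation marks were called there.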

How the data were processed

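The members and lists were chosen with earlier results of these data known. Peaks were called with MACS2 per the submitters' processing notes, with the version and the aligner not given in the sources used here, and the deposited peak names show 1 input per list. The deposited fold enrichment is the authors' linear ratio over background. The deposited −log10 p and −log10 q are those of the authors' caller, with a lowest −log10 q of 1.30. The deposited score is the −log10 q on a larger scale. Lists were compared with Python 3.11.15, numpy 2.4.6, scipy 1.17.1 and pandas 2.3.3 and drawn with matplotlib 3.10.9, and the code was tested on simulated peak lists. Samples were grouped by the species, tissue and antibody of their labels. Tests were two-sided exact sign-flip tests over species or factor libraries, adjusted over 8 tests, with a threshold of 0.05. Further sign-flip tests within single species, and on acetylation in the other tissue, were run outside these 8 and are not printed. Wilson intervals cover counting error only, and peak lists carry no read depth. Named regions were the 2 members per species and tissue with the highest mean fold among those with a peak in every H3K27ac library and none in any H3K4 library of the tissue, and per mole-rat the liver member with the highest mean fold among those met by the most factor libraries. Mouse chromosome 18 was left out. Inputs and 4C samples, 1 of them with a title and an organism that differ, were not analysed here. Alternatives were another overlap, 3 replicates, a −log10 q of at least 4, equal peak numbers, a width band, no single-library H3K4 peak, each library left out and marks paired by animal. Regions with a peak in every H3K27ac library, the lower part by fold and acetylation alone in the other tissue were added after seeing the data.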

Additional observations from a re-analysis of the deposited data

Results flagged for a closer look

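In Damaraland mole-rat liver, 22.7% of members had a peak in the H3K4me1 library of DMR2, far from the 5.08% to 8.57% of the other 4 animals. With each library left out of the choice of members, DMR2 again stood apart, at 41.8% against 11.3% to 18.1%. The same library gave the lowest difference between heart members and H3K4me1-marked regions, −27.6 percentage points against −23.6 to −22.4 in the others. These 3 values share 1 library.

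For mouse liver members, the pooled heart H3K27ac library had a difference from H3K4me1-marked regions of 14.7 points, against 7.06 to 9.69 in the other 5. The heart H3K4me3 library of animal 6837 had −18.7 points, against −0.0170 to 1.49. For naked mole-rat heart members, the liver H3K4me3 library of NMR30, the one with 253457 peaks, had −7.33 points, against −2.001 to −0.848. Of 45 groups of libraries examined, 6 held a library that stood apart in this way, and chance gives about 1 in 20 by the 95% critical value used.

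Acetylation in the other tissue moved in opposite directions: it was 10.0 points more frequent at liver members than at H3K4me1-marked liver regions, in 17 of 17 libraries, and −16.7 points for heart members, in 17 of 17. The difference between the tissues was not tested.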

How the results depend on the processing

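All tested results kept their direction and their side of the 0.05 threshold under each alternative that could be run. Over 4 species no p under 0.13 is possible, so the side of the threshold says nothing about stability there. The number of members moved by more than 1.5 times to 78599 without a single-library H3K4 peak, to 90405 at 300 to 800 bases and to 43291 with a peak in every H3K27ac library. The last was added after seeing the data, and each keeps fewer regions by construction. Leaving out 1 library gave 132954 to 151480 members. It gave differences of 6.03 to 8.47 points for liver members found in heart and −26.1 to −24.6 for heart members found in liver. For factors the ranges were −10.3 to −7.84 in the naked mole-rat and −17.0 to −13.9 in the Damaraland mole-rat. Several differences kept their direction and moved by more than 1.5 times. With a peak in every H3K27ac library the factor differences were −14.0 points in the naked mole-rat and −25.4 in the Damaraland mole-rat, and the naked mole-rat value was −15.2 with 1 shared base. Liver-only against heart-only members differed by 4.20 and 5.93 points with 1 shared base, 4.37 and 6.12 with 3 replicates, and 9.25 and 9.88 with a peak in every library. For the H3K4me1 library left out, regions with no H3K4 peak in any of the remaining libraries gave 9.39 points in liver and 11.9 in heart. These are not the strictly bare members, which have no peak in the left-out library either. In the same comparison 3 replicates gave 24.7 in liver, and a peak in every H3K27ac library 28.8 in heart. Liver members found in heart differed by 3.81 points when strictly bare, and their acetylation there by 20.7 with a peak in every library. For acetylation of heart members in liver regions with a fold up to the median gave −9.35. Leaving out a Damaraland mole-rat liver H3K4me3 library was not run, because 1 would remain, nor was dropping a further H3K4me1 library in groups of 3 for the library left out.

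Same-animal pairing stands in for a replicate block. With marks paired by animal, the mean number of H3K27ac peaks lacking both marks was 30766.4 in naked mole-rat liver, 58230 in its heart, 28089 and 47381 in Damaraland mole-rat liver and heart, 32374.7 and 35080.7 in the guinea pig, 17174 in mouse liver and 69733 in the mouse heart pool. These count single peaks and not consensus regions. In the tests over species or factor libraries each difference was taken within a species or a library.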

Other observations

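Members of the mouse were more often on the X chromosome than H3K4me1-marked regions and less often than regions with H3K4me3. This pattern was chosen after its values were seen and is given without a p-value. In liver 2.49% of members lay on X, against 0.754% of H3K4me1-marked regions and 2.66% of regions with H3K4me3. In heart the shares were 1.94% for members, 0.63% for H3K4me1-marked regions and 3% for regions with H3K4me3. The share of H3K27ac peaks outside both methylation sets was 33.5% ± 2.81 on X and 22.4% ± 1.35 elsewhere in liver (SD, n = 4), higher on X in 4 of 4 libraries. In heart it was 33.9% ± 8.24 and 27.9% ± 8.02 (n = 6), higher in 5 of 6. Beside this, X held 1.13% of H3K4me1 peaks and 1.62% of H3K27ac peaks in liver, and 0.840% and 1.59% in heart. The part of the smaller share of H3K4me1 peaks on X was not tested.

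Liver members acetylated alone in both tissues had a peak of any liver factor less often than other members, 13.4% against 18.9% in the naked mole-rat and 10.7% against 16.4% in the Damaraland mole-rat, as values without a test.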
